A study of Mus musculus with 50 samples.

Results

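This comparison covers the first 24 h after Cdk12 was withdrawn from mouse embryonic stem cells. Its members are 8 of the 50 libraries of the series, chosen by genotype, assay and time: 4 RNA libraries taken 24 h after doxycycline (Dox) was removed and 4 taken at 0 h, while Dox was still present. All 8 came from V6.5 cells of C57Bl/6-129 background with the genotype Cdk12 -/-:Cdk12 Tg+, in which both endogenous Cdk12 alleles are disrupted and a Dox-inducible Cdk12 transgene keeps the cells supplied. The 24 h cells were grown without Dox and the 0 h cells with 1 µg/mL Dox, in gelatin-coated dishes with serum and LIF. Both times hold the same 2 clones, c.28 and c.36, with 2 biological replicates of each. The knockout and the transgene are therefore common to both times, and each number stands for 1 clonal line, so that what only these lines share cannot be told apart from the genotype. Parental cells with loxP sites around Cdk12 exon 4 and no transgene, kept in Dox for 17 days and then harvested with Dox or after its removal, served as the control for Dox itself. Their 6 libraries have no values of their own in the data used here, and whether the Dox mark described below was made from them is not stated.

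Cdk12 is a cyclin-dependent kinase that works with cyclin K (Ccnk) and adds phosphates to the repeated C-terminal tail of RNA polymerase II during elongation. It is known for maintaining full-length transcription of long genes, many of them in homologous recombination and the Fanconi anemia pathway, by restraining the use of polyadenylation sites within introns. Embryonic stem cells divide fast and depend on these repair pathways, and they respond to DNA damage through p53.

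The measurement was RNA sequencing of RNA with integrity numbers of 9.6 to 10 at 24 h and 9.4 to 9.8 at 0 h, and the part of this small difference in the results was not tested. The values come from the authors' deposited table of their own comparisons, which has 12819 rows and no column per library. No value per sample, SD or depth can therefore be shown for any gene, and how far libraries differ is known only as far as the authors' statistics carry it. For each gene the table gives a log2 change, a posterior probability that the gene differs between the times, an adjusted p from a test that is not named, and a yes or no mark for a Dox effect. A change is written here as 24 h over 0 h, so that a negative value is a lower level after 24 h without Dox. The column is named 0 h before 24 h and was taken as 0 h over 24 h, so its sign was turned; no header states this. A gene is called where the posterior probability is at least 0.95. In bulk RNA, fewer cells that express a gene and less of its RNA per cell cannot be told apart.

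The transcript of the depleted gene itself was not called. Cdk12 stood at -0.61 (log2) in the authors' deposited table, with a posterior probability of 0.0704. This row may mix reads from the disrupted alleles with reads from the transgene, and nothing in the table separates them. Its partner Ccnk stood at -0.02 and the related kinase Cdk13 at -0.10 in the authors' deposited table. None of the 18 kinases and cyclins listed as acting on this tail was called, where the share of all genes called, 1.13%, would give 0.203 calls. Their median change in the authors' deposited table was 0.06, against 0.01 for all genes.

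Markers of the cell type were present and none was called. The 6 pluripotency markers Pou5f1, Nanog, Sox2, Klf4, Esrrb and Zfp42 lay between -0.18 and 0.27 (log2) in the authors' deposited table. Of 5 markers of feeder fibroblasts, Col1a2, Col3a1 and Dcn have no row, and Col1a1 stood at 0.18 and Thy1 at 0.31 in the authors' deposited table without a call. Endoderm markers Gata4, Gata6 and Sox17 stood at 0.26 to 0.67 in the authors' deposited table, and trophoblast markers Cdx2, Eomes and Gata3 at 0.18 to 0.70, again with no call. The neural markers Sox1, Nes and Tubb3 lay between -0.32 and 0.10 and the mesoderm marker Mixl1 at 0.10, also uncalled. Elf5, Pax6 and T have no row. Outside these markers, the trophoblast genes Ascl2 and Tfap2a were called falls and the endoderm gene Sox7 a called rise, as described below. The part of feeder or differentiated cells in the results was not tested, since the table gives no levels.

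Few genes were called at 24 h, and the called falls had a median farther from 0 than the called rises. The authors' deposited table called 143 of 12663 genes with a posterior probability, which is 1.13% of them. Of these, 86 fell (0.679%) and 57 rose (0.450%). The median called fall in the authors' deposited table was -0.90 on the log2 scale, which leaves 53.4% of the 0 h level, and the middle 50% of called falls lay between -1.33 and -0.70. The median called rise was 0.64, or 1.56-fold, with the middle 50% between 0.57 and 0.77 in the authors' deposited table. At -1 or below stood 85 genes, 33 of them called, and at 1 or above stood 22 genes, 4 of them called, by the authors' deposited table. At -2 or below the table has 16 genes, 10 of them called, and at 2 or above 2 genes, neither called in the authors' deposited table. The adjusted p, taken at 0.05 or less, is far stricter and passed 21 of 12551 genes (0.167%) in the authors' deposited table. Of these, 19 were lower (0.151%) and 2 were higher (0.0159%) at 24 h. All 19 were also called falls, whereas of the higher 2 genes Zfp750 was called and Gm14430, a predicted gene, has no posterior probability in the authors' deposited table. The rises below rest on the posterior probability alone, apart from Zfp750. The adjusted p was 0.5 or more for 45 of the 86 called falls and 49 of the 57 called rises in the authors' deposited table.

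**Figure D1:**
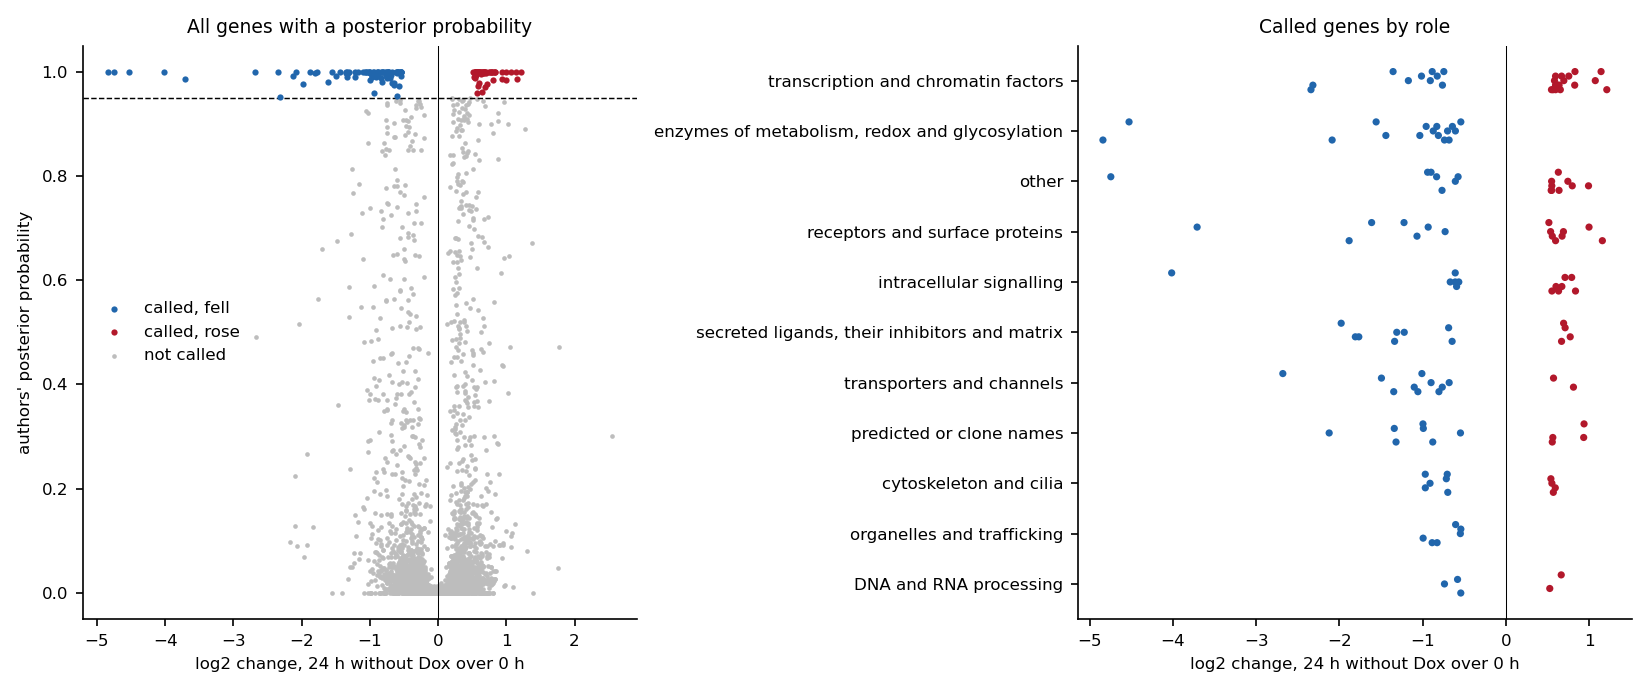
Left, each point is 1 gene of the authors' deposited table, with its log2 change (24 h without Dox over 0 h) on the x axis and the authors' posterior probability on the y axis, and a dashed line at 0.95. Right, the 143 called genes by role, each point a gene on the same x axis, with falls in blue reaching -4.84 and rises in red reaching 1.21.

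Called and uncalled genes lay close together at the edge of the call. The called genes with the lowest posterior probabilities in the authors' deposited table were Tfap2a at 0.952, Tbc1d9b at 0.954 and Kifc5b at 0.958. The uncalled genes with the highest were Arhgef4 at 0.9496, just under the threshold, Pip4k2b at 0.949 and Mycl1 at 0.948 in the authors' deposited table. Size of change and posterior probability do not run in parallel. No called gene had a change smaller than 0.52 in either direction, yet genes as low as Plau, the urokinase gene, at -2.16, and Gpr56, an adhesion receptor gene, at -2.09 were not called in the authors' deposited table. Their posterior probabilities were 0.0981 and 0.128 in the authors' deposited table, and these 2 genes were picked after their values were seen.

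An oxidase gene and the gene of its partner were among the 3 steepest called falls, with Pvalb, described below, between them. Duox1 encodes a membrane oxidase that produces hydrogen peroxide, and Duoxa1 the factor that it needs to leave the endoplasmic reticulum. Duoxa1 fell by 4.84 (log2), to 3.49% of the 0 h value, in the authors' deposited table, and Duox1 fell by 4.53 to 4.33%. Adjusted p values were 0.000687 for Duoxa1 and 0.000447 for Duox1 in the authors' deposited table. Of 30 measured genes of NADPH oxidases and redox control, Duox1 and Duoxa1 were the only calls. They made up 6.90% of the 29 with a posterior probability, against 1.13% of all genes. The list's median was -0.11 against 0.01 for all genes in the authors' deposited table. Uncalled members of it included the quinone reductase gene Nqo1 at -0.60 and Gpx3, an extracellular glutathione peroxidase, at 0.51 in the authors' deposited table.

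Duoxa1 and Duox1 lie side by side on chromosome 2 and face away from each other, so the sequences around their starts are shown to compare the regions from which the pair is transcribed. RefSeq on GRCm38.p6 gives 250 bases before and 50 after each start, at chr2:122313681-122313980 on the minus strand for Duoxa1 and chr2:122315422-122315721 on the plus strand for Duox1. Those of Rapgef4 (chr2:71980965-71981264, plus strand) and Pvalb (chr15:78206351-78206650, minus strand, the first of 2 listed starts), which fell about as steeply, are set below them. The annotated spans of Duoxa1 and Duox1 overlap, the listed start of Duox1 lies within its own span, and whether reads were counted by strand is not stated, so reads in the overlap cannot be told apart. All read 5′ to 3′ along the gene. The motifs searched on both strands are in capitals: the TATA box as TATAAA, the CCAAT box as its own 5 letters, the GC box as GGGCGG and the full cAMP response element as TGACGTCA. Copies of the GC box may overlap.

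Duoxa1: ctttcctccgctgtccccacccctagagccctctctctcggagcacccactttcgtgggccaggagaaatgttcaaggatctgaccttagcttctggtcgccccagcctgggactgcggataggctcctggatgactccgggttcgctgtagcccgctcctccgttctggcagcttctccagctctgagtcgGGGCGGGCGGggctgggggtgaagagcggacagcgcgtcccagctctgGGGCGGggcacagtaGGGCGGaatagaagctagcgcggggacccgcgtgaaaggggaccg
Duox1: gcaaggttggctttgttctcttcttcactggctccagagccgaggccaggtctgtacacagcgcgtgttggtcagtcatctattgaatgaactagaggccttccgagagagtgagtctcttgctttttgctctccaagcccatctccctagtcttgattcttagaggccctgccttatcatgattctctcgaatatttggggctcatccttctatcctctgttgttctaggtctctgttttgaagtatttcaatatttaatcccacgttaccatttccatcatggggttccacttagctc
Rapgef4: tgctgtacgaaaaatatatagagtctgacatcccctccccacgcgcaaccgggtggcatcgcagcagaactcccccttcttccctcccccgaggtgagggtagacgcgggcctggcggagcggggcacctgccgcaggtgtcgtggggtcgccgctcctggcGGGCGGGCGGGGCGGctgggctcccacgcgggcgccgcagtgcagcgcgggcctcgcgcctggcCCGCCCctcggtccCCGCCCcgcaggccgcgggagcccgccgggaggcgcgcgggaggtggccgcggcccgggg
Pvalb: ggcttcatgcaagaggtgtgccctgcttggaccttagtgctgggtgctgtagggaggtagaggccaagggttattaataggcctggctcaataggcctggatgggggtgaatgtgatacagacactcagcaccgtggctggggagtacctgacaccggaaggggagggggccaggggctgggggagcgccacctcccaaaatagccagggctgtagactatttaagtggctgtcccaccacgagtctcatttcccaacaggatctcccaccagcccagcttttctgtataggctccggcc

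The 4 windows differ in composition. The windows of Duoxa1 and Rapgef4 are rich in GC, at 65.7% and 76.7%, and each holds several GC boxes. Those of Duox1 and Pvalb hold none of the motifs searched. Their ratio of observed to expected CpG, which is near 1 in unmethylated CpG islands, was 0.372 for Duox1 and 0.199 for Pvalb, and 0.682 for Duoxa1 and 0.908 for Rapgef4. A match is a description of these letters only.

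Rapgef4 and Pvalb were the other called falls of 4 or more (log2) beside Duoxa1 and Duox1 in the authors' deposited table. Rapgef4 encodes an exchange factor for Rap proteins that cAMP activates directly, and it fell by 4.02 (log2), to 6.18% of the 0 h value, in the authors' deposited table, with an adjusted p of 1.83e-33. That is the smallest adjusted p of any gene called at 24 h. Of 30 measured genes of cyclic AMP and GMP signalling, Rapgef4 was the only called fall. Adcy9, an adenylyl cyclase gene, was the only called rise, by 0.55 in the authors' deposited table. These calls made up 6.67% of the list, against 1.13% of all genes. The list's median in the authors' deposited table was -0.01, with 15 members below 0 and 15 above. Adcy5, another cyclase gene, stood at -1.93 without a call, the phosphodiesterase gene Pde9a at -0.84 and Pde6d, a prenyl-binding protein gene, at -0.55 in the authors' deposited table. Pvalb, which encodes the calcium buffer parvalbumin, fell by 4.75 to 3.72% in the authors' deposited table, with an adjusted p of 3.13e-06. Necab3, another calcium-binding protein gene, fell by 0.90 in the authors' deposited table. Other called falls in signalling were smaller, between -0.67 and -0.57 in the authors' deposited table, and included the GTPase regulators Kndc1, Tbc1d9b and Arhgap8 and the kinase gene Alpk3.

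Transcription and chromatin factors made up the largest role group, with 27 called genes of which 10 fell and 17 rose. These role groups were drawn up from called genes alone, with the values known, so they give no share of tested genes and carry no test. Ascl2, a basic helix-loop-helix factor of trophoblast and intestinal stem cells, fell by 2.34 (log2), to 19.7% of the 0 h value, in the authors' deposited table. Tfap2a, a factor of neural crest, surface ectoderm and trophoblast, fell by 2.32 to 20.0% in the authors' deposited table. These were the only calls among 14 measured trophoblast genes (14.3%, against 1.13% of all genes). The median of that list was 0.13 in the authors' deposited table. Krt7, a keratin gene, stood at -0.92, Eomes at 0.70 and Id2 at -0.67 there without a call. Neurog3, which drives endocrine differentiation in the pancreas, fell by 1.36, and Hdac11, a histone deacetylase gene, by 1.17 in the authors' deposited table. Dnmt3a, a de novo DNA methyltransferase gene, fell by 1.01 to 49.5%, with an adjusted p of 0.0358 in the authors' deposited table. Its relative Dnmt3b stood at 0.42 without a call in the authors' deposited table. Smaller falls among factors were those of Wt1 by 0.91, Foxn4 by 0.89, Zfp367 by 0.83, Zic2 by 0.76 and Hif3a by 0.75, as listed in the authors' deposited table.

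The risen factors kept within a narrow band, from 0.55 for Sox7, an endoderm and endothelial factor, to 1.21 for Zhx3, a zinc finger and homeobox protein gene, in the authors' deposited table. Zfp750, which promotes epidermal differentiation, rose by 1.14, or 2.21-fold, with an adjusted p of 0.0358 in the authors' deposited table. Nkx2-9, a homeobox gene of the ventral neural tube, rose by 1.07 and Sox21, a factor of neural progenitors, by 0.83 in the authors' deposited table. With Foxn4, which carries the Dox mark at 24 h, these were the calls among 10 measured neural genes. They made up 30.0% of the list, against 1.13% of all genes, and its median was 0.27. Neurod1 stood at 1.37, Nkx2-2 at 1.30 and Olig2 at 0.33 in that list without a call by the authors' deposited table. Nfatc2, a calcium-regulated factor gene, rose by 0.83 and Nfatc1 by 0.65 in the authors' deposited table. Further rises there were those of the repressor genes Hic1 (0.75) and Bach2 (0.62), Casz1 (0.70), the linker histone gene H1f0 (0.64), Foxo3 (0.57) and Mll1 (0.58), a histone H3 methyltransferase gene now named Kmt2a, in the authors' deposited table. Among 24 measured immediate early genes only the nuclear receptor gene Nr4a2 was called (4.17%), with a rise of 0.67. Of the 24, 20 stood above 0 in the authors' deposited table, with a median of 0.14. The AP-1 genes Fosl1 at 1.05, Fosl2 at 0.85 and Fosb at 0.60 were not called in the authors' deposited table. Nab2, a corepressor of EGR factors, rose by 0.60 in the authors' deposited table.

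**Figure D2:**
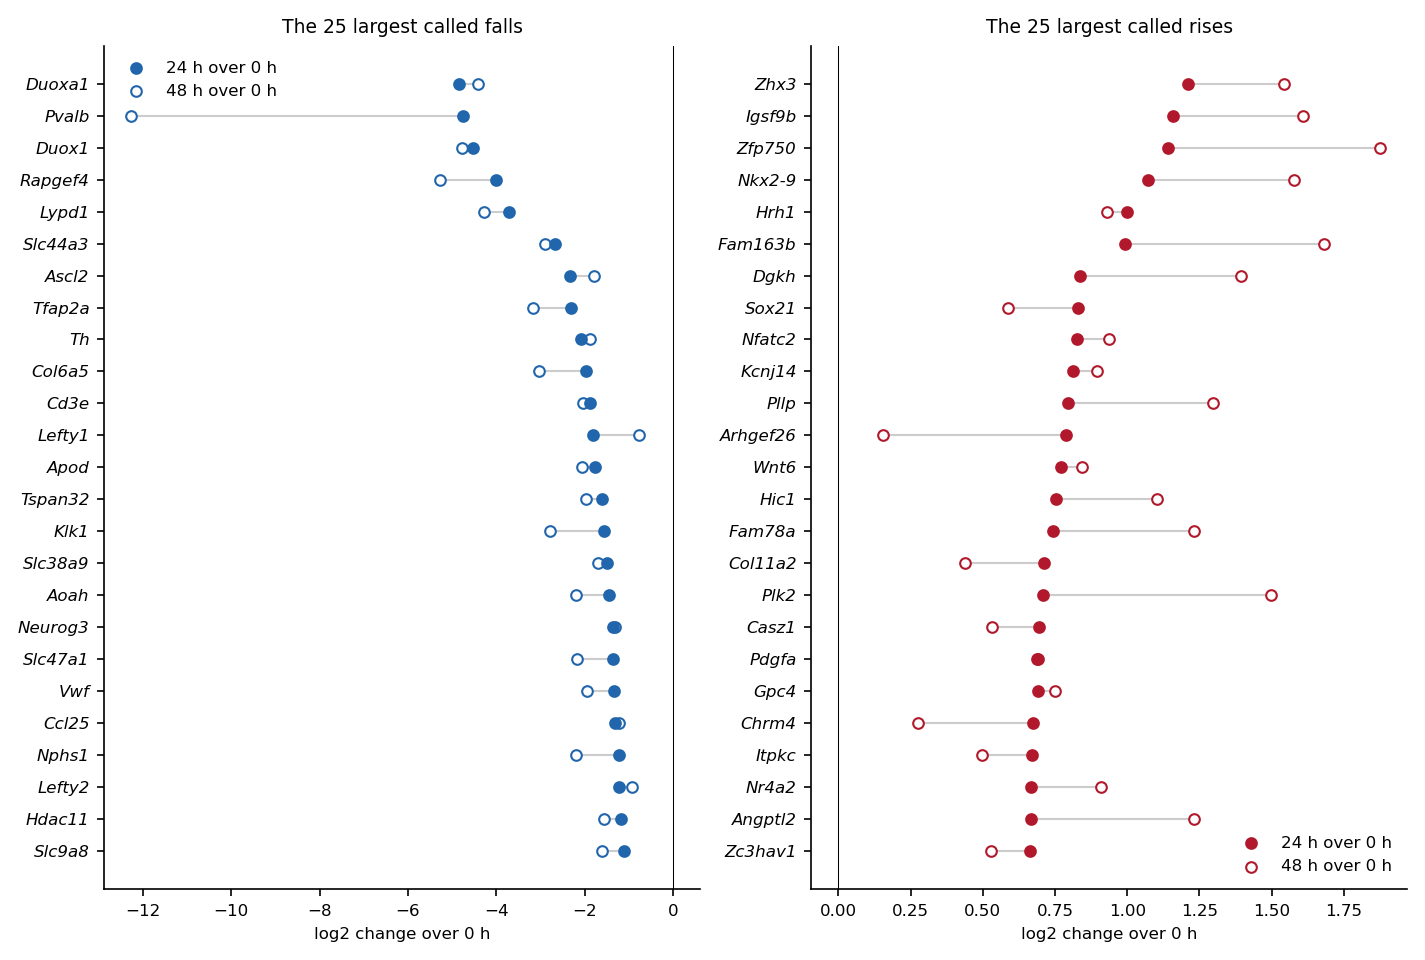
The 25 largest called falls (left, blue) and rises (right, red) at 24 h without predicted or clone names, with the log2 change over 0 h on the x axis (scales differ between panels). Filled points are 24 h over 0 h and open points 48 h over 0 h, from the authors' deposited table. The largest fall stands at -4.84 at 24 h. Pvalb reaches -12.27 at 48 h, a value without a posterior probability.

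The share of genes called was 9.38% among the 32 pluripotency genes and 16.7% among the 12 primed epiblast genes with a posterior probability, against 1.13% of all genes in the authors' deposited table. These shares rest on 3 and 2 calls and carry no test. Of 34 measured pluripotency genes the Nodal inhibitor gene Lefty1 fell by 1.81 and its paralog Lefty2 fell by 1.22 (log2), while Klf2, a factor of the naive state, rose by 0.60 in the authors' deposited table. Lefty1 fell to 28.5% of the 0 h value with an adjusted p of 0.0152 in the authors' deposited table, and Lefty2 to 42.9% with 0.0529. These paralogs are close copies of each other, and how reads that match both were counted is not stated. The list's median was 0.15 in the authors' deposited table, and the largest uncalled values were Tet2 at 0.64, Tet1 at 0.51 and Socs3 at 0.49. Of 12 measured genes of the primed epiblast, Dnmt3a and Zic2 fell and none rose, with a median of 0.02 in the authors' deposited table. Of 18 measured endoderm genes Sox7 was a called rise and none a called fall, a share of 5.88% of the 17 with a posterior probability. Of the 18, 15 stood above 0, with a median of 0.30 in the authors' deposited table. None of 8 measured mesoderm genes was called, with a median of 0.13 and Wnt3 at 0.43 in the authors' deposited table. None of 5 measured fibroblast genes was called either, with a median of 0.24 and Twist1 highest at 0.43 in the authors' deposited table. At the share of all genes, the mesoderm list would hold 0.09 calls and the fibroblast list 0.056.

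Genes of homologous recombination, the best known group that depends on Cdk12, gave no call at 24 h, where the share of all genes called, 1.13%, would give 0.418 calls in a list of this size. Of 37 measured genes of homologous recombination and the Fanconi anemia pathway, 28 stood below 0 and 9 above, none was called, and the median was -0.21 (log2) against 0.01 for all genes in the authors' deposited table. The largest uncalled values were Fanci at -0.80, Rad51c, a recombinase paralog gene, at -0.79 and Fancd2 at -0.54 in the authors' deposited table. At 48 h Fanci stood at -1.36, Rad51c at -0.90 and Fancd2 at -1.23 in the authors' deposited table. Among 19 measured checkpoint genes none was called, where the share of all genes would give 0.215 calls. Their median was -0.05, with the kinase genes Atm at -0.53 and Atr at -0.45 and the clamp gene Rad1 at -0.37 in the authors' deposited table. Outside these lists, 3 genes acting on DNA fell: the adenine glycosylase gene Mutyh by 0.74, Psmc3ip, a cofactor of meiotic recombinases, by 0.58 and the cytidine deaminase gene Apobec3 by 0.54 in the authors' deposited table. Among genes acting on nucleic acids Zc3hav1, an antiviral RNA-binding protein gene, rose by 0.66 and the helicase gene Ighmbp2 by 0.53 in the authors' deposited table.

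Of the genes that p53 induces, 2 of 31 were called (6.45%), both rises, against 1.13% of all genes in the authors' deposited table. Of these 31 genes 26 stood above 0 and 5 below (16.1%), where 47.8% of all genes stood below 0, with no test made, and the median of 0.33 was the highest of the 20 lists in the authors' deposited table. Plk2, a polo-like kinase gene, rose by 0.71 and Zfp365, which protects genome stability, by 0.63 in the authors' deposited table, and no member fell. The largest uncalled values were Polk, a translesion polymerase gene, at 0.81, Bbc3, which encodes the death inducer Puma, at 0.70 and Phlda3, an Akt inhibitor gene, at 0.68 in the authors' deposited table. Ptprv, a phosphatase gene also known as a p53 target, rose by 0.54 in the authors' deposited table. Plk2, Zfp365 and Ptprv carry the mark for a Dox effect at 48 h, though not at 24 h. The adjusted p at 24 h was 0.704 for Plk2 and 0.970 for Zfp365. The part of Dox in these rises was not tested.

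**Figure D3:**
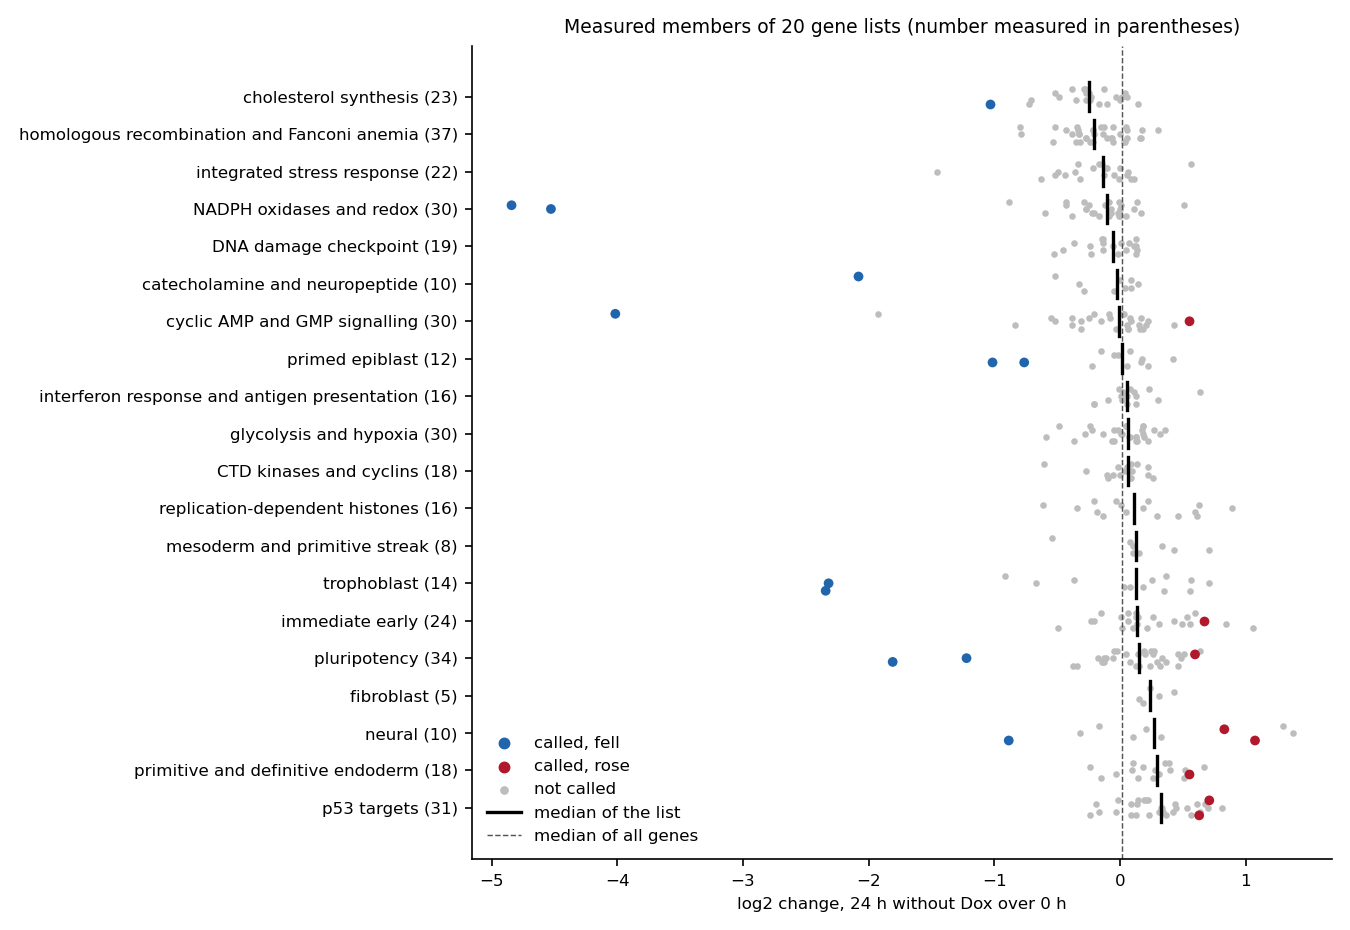
Each point is a measured member of 1 of 20 gene lists, with its log2 change (24 h without Dox over 0 h) from the authors' deposited table on the x axis, and lists are ordered by their median (black bar). Medians run from -0.25 for cholesterol synthesis to 0.33 for p53 targets, and each list holds between 0 and 3 called genes.

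Genes of cholesterol synthesis had the lowest median of the lists, -0.25, with 19 of 23 measured members below 0 in the authors' deposited table. Only Nsdhl, a sterol dehydrogenase gene, was called, with a fall of 1.03 to 48.8% of the 0 h value in the authors' deposited table. This call is 4.35% of the list, against 1.13% of all genes. Insig1, which retains the sterol sensor, stood at -0.73, Cyp51, the lanosterol demethylase gene, at -0.71 and Hsd17b7 at -0.52 in the authors' deposited table without a call. Metabolic, redox and glycosylation enzymes, a role group of called genes only, gave 16 calls in all, and each of them was a fall. Of all 143 calls 86 were falls, and the number of such enzymes tested was not counted. Th, which encodes tyrosine hydroxylase of catecholamine synthesis, fell by 2.09 on the log2 scale to 23.5% in the authors' deposited table, with an adjusted p of 3.6e-05. It was the only call (10.0%) among 10 measured catecholamine and neuropeptide genes, whose median was -0.03. Penk stood at -0.52, Pts at -0.33 and Pnmt at -0.29 without a call in the authors' deposited table. Klk1, a protease gene of the kallikrein family, whose members resemble each other closely, fell by 1.56 and Aoah, a lipid hydrolase gene, by 1.44 in the authors' deposited table. Called genes of protein glycosylation changed by less, Alg8 with a fall of 0.74, Pmm2 by 0.61 and Pofut1 by 0.54 in the authors' deposited table, and so did the lysosomal galactosidase gene Glb1 by 0.87 and Bckdk, a kinase gene of branched-chain amino acid breakdown, by 0.70.

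Several membrane transporters fell. Of 204 solute carrier genes with a posterior probability, 7 fell, or 3.43%, and 0 rose, where 0.679% of all genes fell in the authors' deposited table. Solute carriers were singled out after the calls were seen, and their median change over 209 measured genes was -0.07 in the authors' deposited table. Slc44a3, of the choline transporter-like family, fell by 2.68 to 15.6% of the 0 h value in the authors' deposited table, and Slc38a9, the lysosomal arginine sensor gene, fell by 1.496. Slc47a1, an exporter of organic cations, fell by 1.35 and Slc9a8, a sodium and proton exchanger gene, by 1.10 in the authors' deposited table. Adjusted p values of these 4 lay between 0.000121 and 0.0469 in the authors' deposited table. The others were Slc27a2 at -0.90, Slc12a8 at -0.81 and the glutamate transporter gene Slc1a3 at -0.77 in the authors' deposited table. Sfxn5, a mitochondrial carrier gene, fell by 1.01, Mfsd3 fell by 0.68 and Grin2c, a glutamate receptor channel gene, fell by 1.06 in the authors' deposited table. Against these, the potassium channel gene Kcnj14 rose by 0.81 and Rhcg, an ammonium channel gene, by 0.57 in the authors' deposited table.

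Secreted and surface proteins were called in both directions. Of 12 called genes for ligands, their inhibitors and matrix, 8 fell and 4 rose, and of 15 for receptors and surface proteins 7 fell and 8 rose. Lypd1, which encodes a lipid-anchored modulator of nicotinic receptors, fell by 3.71 (log2), to 7.64% of the 0 h value, yet its adjusted p was 0.828 in the authors' deposited table. The collagen gene Col6a5 had -1.98, Cd3e, a T cell receptor subunit gene, -1.88 and Apod, a lipocalin gene, -1.77 in the authors' deposited table. Called falls there were also Vwf, the von Willebrand factor gene, at -1.34, the chemokine gene Ccl25 at -1.31 and the nephrin gene Nphs1 at -1.22 in the authors' deposited table. Notum, which inactivates Wnt proteins, fell by 0.69, and the ligand gene Wnt6 rose by 0.77 in the authors' deposited table. The growth factor gene Pdgfa rose by 0.69, Angptl2, an angiopoietin-like gene, by 0.67 and Col11a2 by 0.71 in the authors' deposited table. Receptor genes among the rises were those for histamine (Hrh1, 1.00), acetylcholine (Chrm4, 0.67), interleukin 17 (Il17ra, 0.56) and semaphorins (Nrp2, 0.60), and the adhesion genes Igsf9b at 1.16, Gpc4 at 0.69 and Icam1 at 0.52 in the authors' deposited table.

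Inside the cell, organelle and trafficking genes gave 6 falls and 0 rises, and cytoskeletal and ciliary genes 6 falls and 4 rises. Such role groups hold called genes only, of which 86 of 143 fell in all, and carry no test. The endosome tether gene Vps53 fell by 0.89, the ubiquitin ligase gene Lrsam1 by 0.83 and the peroxisome gene Pex10 by 0.54 in the authors' deposited table. The mitochondrial genes Lyrm5, Tomm40l and Msto1 were called at -0.995, -0.60 and -0.55 in the authors' deposited table. Tns1, which links actin to adhesions, fell by 0.97, the dynein gene Dnahc1 by 0.97, the ciliary transition zone gene Tmem231 by 0.72 and the tubulin acetyltransferase gene Atat1 by 0.70 in the authors' deposited table. Rises in signalling were 7, led by Dgkh, a diacylglycerol kinase gene, at 0.84, and Arhgef26, a guanine nucleotide exchange factor gene, at 0.79 in the authors' deposited table. Genes with predicted or clone names in the table, some of which have gene symbols now, made up 11 of the 143 calls. Of the 11, 7 were falls, and the lowest, AW551984, stood at -2.12 in the authors' deposited table. Among them 6720401G13Rik, now named Firre, fell by 1.32 with an adjusted p of 0.0152. The highest of the 11, D10Bwg1379e, now named Arfgef3, rose by 0.94 in the authors' deposited table. A further 16 called genes fell under none of these roles, 7 of them falls and 9 rises, among them the myelin gene Pllp at 0.80 and the cochaperone gene Dnajb1 at 0.54 in the authors' deposited table.

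No stress, hypoxia, interferon or histone gene of the lists was called, and at the 1.13% of all genes each of these lists would hold between 0.181 and 0.339 calls. The integrated stress response list of 22 measured genes had a median of -0.14, with the cystine transporter gene Slc7a11 at -1.46, Aldh1l2 at -0.63 and Sesn2 at 0.56 in the authors' deposited table. Glycolysis and hypoxia genes, 30 measured, had a median of 0.06, and their most distant values were Ldhb at -0.59, Car9 at -0.48 and Pdk1 at -0.37 in the authors' deposited table. Of 16 measured interferon and antigen presentation genes the median was 0.05 and the highest Tap1, a peptide transporter gene, at 0.63 in the authors' deposited table. Of 16 measured replication-dependent histone genes the median was 0.11, with Hist2h3c1 at 0.89 in the authors' deposited table. Such histone mRNAs normally lack a polyA tail, and near-identical copies share reads, so these values are uncertain.

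Some fallen genes were neighbours. All matched genes were put in the order of the GRCm38.p6 annotation. Of 86 called falls, 5 had a gene called in the same direction directly beside them, and of 57 called rises 0 did. Over all genes with a posterior probability, 0.679% fell and 0.450% rose, and the difference between falls and rises was not tested. The 5 were the pair Duoxa1 and Duox1 on chromosome 2 and a run of 3 on chromosome 7, Th, Ascl2 and Tspan32. Tspan32, a tetraspanin gene of blood cells, fell by 1.61 (log2), to 32.7% of the 0 h value, in the authors' deposited table. On one side of this run stood Igf2, an imprinted growth factor gene, at -0.70 and Igf2as at -0.30, and on the other R74862 at 0.10 and Cd81 at -0.01, all uncalled in the authors' deposited table. Beside Duox1 stood Shf, an adaptor protein gene, at -2.03 with a posterior probability of 0.516, and beyond it Gatm, of creatine synthesis, at -0.71 in the authors' deposited table. On the far side of Duoxa1 stood Sord at -0.16 and B2m at -0.21 without a call in the authors' deposited table. Next to Rapgef4 Pdk1 stood at -0.37 and B230120H23Rik at 0.23 in the authors' deposited table. Next to Pvalb, Ift27 stood at 0.02 and Tst at 0.12 in the authors' deposited table. Over the 165 uncalled neighbours of called falls the median change was -0.01, and over the 113 uncalled neighbours of called rises it was 0.04 in the authors' deposited table.

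**Figure D4:**
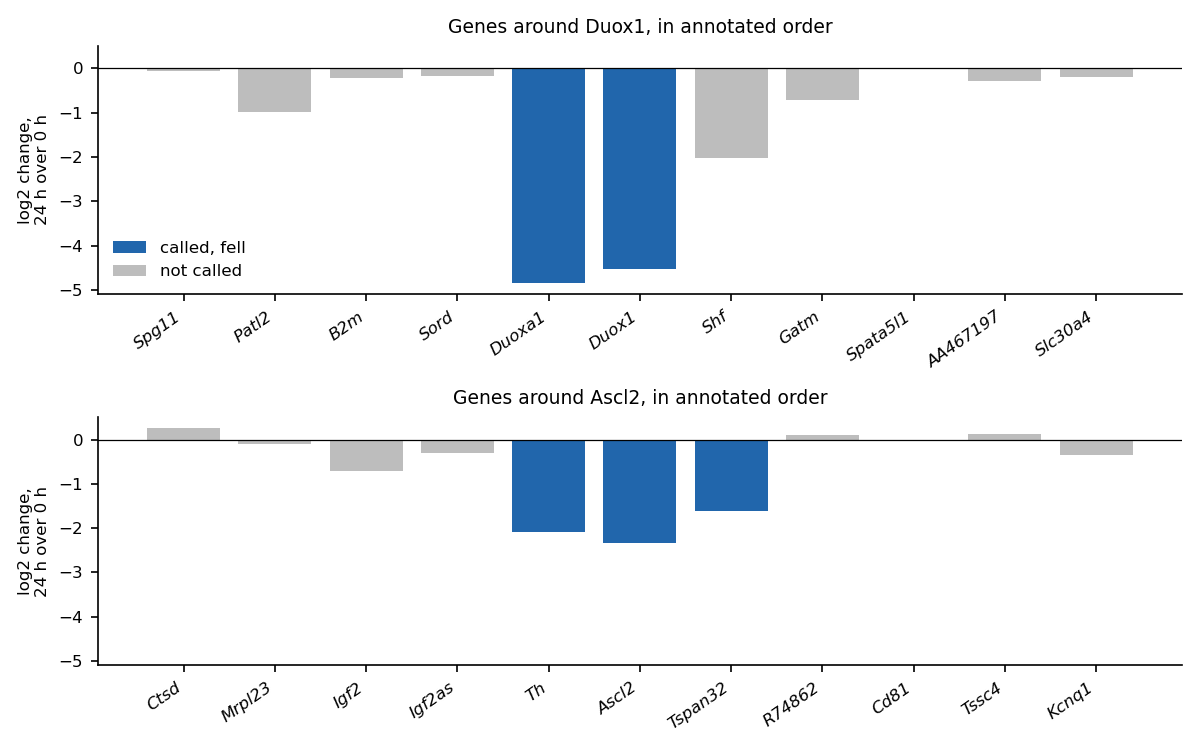
Genes in annotated order around Duox1 and Ascl2, with up to 5 measured genes on each side (not to scale along the chromosome), and bars giving the log2 change, 24 h without Dox over 0 h, from the authors' deposited table. Called falls are blue and uncalled genes grey, and Shf at -2.03 is the lowest uncalled bar.

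The starts of the chromosome 7 run are shown because all 3 genes fell, and that of Plk2, a called rise, because it shares a motif with Th. RefSeq on GRCm38.p6 places them at chr7:142899946-142900245 for Th and chr7:142969215-142969514 for Ascl2, both on the minus strand, chr7:143004796-143005095 on the plus strand for Tspan32, and chr13:110394794-110395093 on the plus strand for Plk2. Capitals mark the motifs named above.

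Th: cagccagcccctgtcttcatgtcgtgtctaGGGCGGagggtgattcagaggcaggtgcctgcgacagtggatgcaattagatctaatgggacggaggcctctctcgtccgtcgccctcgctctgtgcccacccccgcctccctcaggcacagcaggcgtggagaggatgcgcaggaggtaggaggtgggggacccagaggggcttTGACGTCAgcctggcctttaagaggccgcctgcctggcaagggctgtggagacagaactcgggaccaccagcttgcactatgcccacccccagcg
Ascl2: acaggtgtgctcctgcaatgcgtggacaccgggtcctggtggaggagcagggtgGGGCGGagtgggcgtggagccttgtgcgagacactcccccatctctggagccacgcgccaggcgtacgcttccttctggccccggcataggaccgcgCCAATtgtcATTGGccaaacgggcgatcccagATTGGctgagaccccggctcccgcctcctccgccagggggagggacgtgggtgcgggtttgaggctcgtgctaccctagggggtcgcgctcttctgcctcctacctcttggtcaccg
Tspan32: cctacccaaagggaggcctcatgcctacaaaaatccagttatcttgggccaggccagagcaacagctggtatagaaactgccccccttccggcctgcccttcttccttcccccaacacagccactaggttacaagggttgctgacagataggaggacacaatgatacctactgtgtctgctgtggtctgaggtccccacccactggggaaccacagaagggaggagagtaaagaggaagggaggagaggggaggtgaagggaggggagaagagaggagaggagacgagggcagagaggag
Plk2: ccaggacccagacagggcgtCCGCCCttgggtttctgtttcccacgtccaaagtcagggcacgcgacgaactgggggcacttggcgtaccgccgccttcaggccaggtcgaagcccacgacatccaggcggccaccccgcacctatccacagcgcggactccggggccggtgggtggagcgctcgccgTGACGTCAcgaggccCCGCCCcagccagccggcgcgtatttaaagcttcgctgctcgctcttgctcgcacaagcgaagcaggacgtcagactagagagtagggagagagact

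The full cAMP response element TGACGTCA stands in the windows of Th, a fall, and of Plk2, a rise. It was in 1 of 70 matched called falls (1.43%), 1 of 44 matched called rises (2.27%) and 327 of 10113 matched genes (3.23%). Ascl2 has CCAAT boxes on both strands and a GC box, while Tspan32 has none of the motifs and a CpG ratio of 0.085, so the motifs found differ among the 3 neighbours.

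Over all called genes, the starts of the falls held fewer CpGs than those of all matched genes, which is a description with no test. Of 143 called genes, 114 matched a promoter in the RefSeq table, as did 10113 rows in all, and where a gene had several starts the first listed was used. The median ratio of observed to expected CpG was 0.549 in the 70 called falls and 0.704 in the 44 called rises, against 0.772 in all matched genes. A ratio below 0.5 was found for 31 called falls (44.3%), 9 called rises (20.5%) and 18.2% of all matched genes. Klk1 (0.037) and Aoah (0.217) were among the low ones, as were Pvalb and Tspan32. GC content differed less, with medians of 60.8% in called falls, 64.7% in called rises and 61.3% in all matched genes. The GC box was in 58.6% of called falls, 77.3% of called rises and 67.0% of all matched genes, the CCAAT box in 37.1%, 27.3% and 39.1%, and the TATA box in 7.14%, 13.6% and 6.58%. Promoters with few CpGs are as a rule those of genes with restricted expression, and no expression level is in the table, so the part of level in this difference was not tested.

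**Figure D5:**
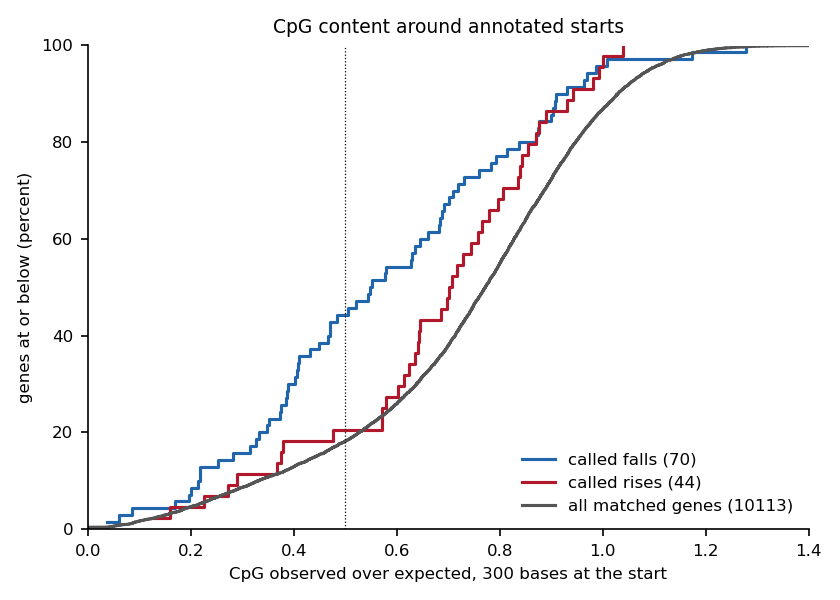
Cumulative share of genes (y axis, percent) at or below a given ratio of observed to expected CpG in the 300 bases around the annotated start (x axis), for 70 called falls, 44 called rises and 10113 matched genes. The line of the called falls runs above the others over most of the range, with 44.3% of them below 0.5 (dotted line), against 20.5% of rises and 18.2% of all.

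Gene length differed less between called and other genes. The annotated span of a gene had a median of 25.3 kb in called falls and 24.1 kb in called rises, against 22.7 kb in all 12703 rows with a length. In the longest quartile of tested genes, from 52.8 kb upward, 25 genes fell (0.797%) and 16 rose (0.510%). In the shortest quartile, up to 9.78 kb, 21 fell (0.669%) and 16 rose (0.510%). The median change by quartile, from short to long genes, was -0.03, 0.02, 0.03 and 0.03 (log2) in the authors' deposited table. By chromosome, 23 of 999 tested genes on chromosome 2 were called (2.30%) and 17 of 1019 on chromosome 7 (1.67%), where 1.13% were called in all. These chromosomes had the highest shares and were picked after the values were seen. Chromosomes 15 (1.61%) and 14 (1.57%) came next. The adjacent called falls described above also lie on chromosomes 2 and 7. The 23 on chromosome 2 were 12 falls and 11 rises.

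The changes of the same genes at 48 h without Dox are given beside those at 24 h, from a comparison that shares the 4 libraries at 0 h, so the values of a gene at 24 and 48 h are not independent and their difference was not tested. Rapgef4 stood at -4.02 and -5.28, Tfap2a at -2.32 and -3.17 and Klk1 at -1.56 and -2.79 at 24 and 48 h in the authors' deposited table. Vps53 had -0.89 and -1.87, Dnmt3a -1.01 and -1.55 and Plk2 0.71 and 1.497 at these times in the authors' deposited table. Ptprv stood at 0.54 and 1.82 and Zfp365 at 0.63 and 1.55 at 24 and 48 h in the authors' deposited table. These genes lay farther from 0 at the later time, and so did Pvalb, at -4.75 and -12.27, though it has no posterior probability at 48 h in the authors' deposited table. With no levels given, the size of this -12.27 cannot be judged. Other called genes lay nearer to 0 at 48 h. Lefty1 had -1.81 and -0.78, Zic2 -0.76 and -0.23, Wt1 -0.91 and -0.40 and Slc12a8 -0.81 and -0.39 at 24 and 48 h in the authors' deposited table. Among rises, Arhgef26 stood at 0.79 and 0.15, Nrp2 at 0.60 and -0.03, Lhx6, a factor of interneurons, at 0.60 and 0.10 and Chrm4 at 0.67 and 0.28 at the 2 times in the authors' deposited table. Duoxa1 had -4.84 and -4.40 and Duox1 -4.53 and -4.78 at 24 and 48 h in the authors' deposited table. Of the genes in this paragraph, Plk2, Ptprv and Zfp365 carry the Dox mark at 48 h. The genes in it are examples picked after their values were seen. How many called genes took each course was not counted, so the examples do not show how common each course was.

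A Dox effect was marked for 3 genes at 24 h, and all 3 were called falls. They were Foxn4 at -0.89, Ttc7 at -0.61 and Alpk3 at -0.59 (log2) in the authors' deposited table. No source used here gives the rule behind the mark. Without them 140 genes were called, 83 of them falls. Of the 143 genes called at 24 h, 10 carry the mark at 48 h, 3 falls and 7 rises, among them Zfp750, Plk2, Zfp365, Ptprv and Dgkh in the authors' deposited table.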

How the data were processed

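RNA was sequenced by the authors from 8 libraries, 4 at each time. Tools named in the submitters' processing notes include DESeq 1.22.1, RSEM and STAR 2.4.1d, and the builds are mm10 and mm9. The sheet's name holds EBSeq. No source used here says which tool made which column. Per the file headers, the authors deposited for each gene a posterior probability, a log2 fold change, a Dox mark and an adjusted p-value. The log2 change was multiplied by -1 to give 24 h over 0 h. No library values, depth or precision per gene could be examined, and no model was fitted.

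A gene was called at a posterior probability of at least 0.95, and 156 genes without one stayed out of these counts. The 23 names that a spreadsheet had turned into dates were not named. The members, the 20 gene lists and the role groups were chosen with earlier results of these data known, so they are no independent evidence, and no list was tested. Named genes were Cdk12, Ccnk and Cdk13, called genes by role with the 25 largest falls and rises first, genes at an adjusted p of 0.05 or less, up to 3 uncalled members per list, neighbours of called genes and the 3 genes on each side of the call's edge, with their 48 h values. Other genes, among them Plau, Gpr56, Igf2, Cd81, Gatm, B2m and AW551984, were picked after their values were seen. A few gene values are left out here.

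Names were matched to RefSeq (GRCm38.p6) by symbol, or by a synonym that only 1 gene has, for 12706 of 12819 rows and all 143 called genes. RefSeq served for gene order, length and promoter sequence, since the sources used here do not say on which build the RNA was counted. Counting was tested on simulated data. Python 3.11.15 with pandas 2.3.3, numpy 2.4.6 and matplotlib 3.10.9 was used.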

Additional observations from a re-analysis of the deposited data

How the results depend on the processing

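The counts of called genes depended mainly on the size of change asked for and on which deposited statistic made the call. With a minimum change of 2-fold, 37 genes were called, 33 falls and 4 rises, against 143, 86 and 57. With the adjusted p of at most 0.05 in place of the posterior probability there were 21, 19 falls and 2 rises. With both statistics required, an alternative chosen after seeing the data, there were 20, 19 falls and 1 rise. The cause of the difference between the statistics was not tested. A posterior probability of at least 0.99 gave 114 (69 falls, 45 rises), a minimum of 1.5-fold 117 (78 and 39), removal of predicted and clone names 132 (79 and 53) and removal of genes with the Dox mark 140 (83 and 57), all within 1.5 times of the main counts. Of the 20 lists, the number of called members moved in 9 with the adjusted p, 6 with a minimum of 2-fold, 2 with 1.5-fold and 2 with a posterior probability of 0.99. The pluripotency list, with 2 calls at the 2-fold minimum against 3, stayed within 1.5 times and is not among the 6. Lists without a call in the main setting had none to lose, so that they did not move is no sign of stability. None of 40 recomputed list medians moved beyond the spread of its list. These medians left out only members without a posterior probability or members with the Dox mark. Most lists lost no member to either setting, so most of these medians could not move and say nothing about stability. The neural median went from 0.27 to 0.33 without its member with the Dox mark. No paired analysis was possible because the deposited columns carry no values per library, and for the same reason leaving out a replicate or a clone was not run. Depth is unknown, so a gene that was not called is not shown to be unchanged.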

Other observations

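Several values in the authors' deposited table sit apart from the calls and belong to no comparison above. The predicted gene Gm14430 has a log2 change of 14.14 and an adjusted p of 0.0377 but no posterior probability at 24 h in the authors' deposited table. Apart from Gm14430 and Gps2, a corepressor subunit gene at -0.52, the genes without a posterior probability lay closer to 0 than any called gene, with a median distance of 0.35 in the authors' deposited table.

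At the other end, 456 genes have a posterior probability under 0.0001, and 5 of them changed by 1 or more in either direction (log2) in the authors' deposited table. Mfap4, a matrix protein gene, stood at -1.55 and Creb3l4, a factor of the CREB family, at -1.41 among these 5 in the authors' deposited table. Genes such as Zfp503 at -2.07, Gpha2 at -2.09 and Cdh3, the P-cadherin gene, at -1.92 were low without a call in the authors' deposited table. Wnt5a at 1.00 and Glis1 at 1.27 were high without a call in the authors' deposited table. These genes were picked after their values were seen.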
